A study of Mus musculus with 6 samples.

Results

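A set of 50 genes of the lysosome was followed in parental CT26.mMR1 cells and in the mutant M8. They are the rows, among 24346 gene symbols of the deposited tables, whose symbol is on a fixed list. The list holds 9 cathepsins, 12 genes of glycan breakdown (11 glycosidases and the sulfatase Ids), 5 soluble lipid hydrolases and cofactors, 6 lysosomal membrane proteins, 15 subunits of the vacuolar H+-ATPase (V-ATPase), and the regulators Tfeb and Tfe3 with the autophagy receptor Sqstm1. CT26 is a mouse colorectal tumor line, and the parental line was made from it by retroviral transduction of mouse MR1, the molecule that presents metabolites to mucosal-associated invariant T (MAIT) cells. M8 came from the parental line by treatment with the mutagen ENU and limiting dilution, so that it is 1 clone carrying the same MR1 transgene. The study picked it among the mutants by its stimulation of a MAIT cell reporter line and its high surface MR1, and effects of ENU, of cloning and of this selection cannot be told apart. The titles of both lines bear the name cl9, which the labels do not explain. RNA from 3 samples of each line was sequenced, and expression is given in FPKM as the authors calculated it, a count of fragments divided by the length of the transcript and by the size of the library. In such bulk samples, fewer cells of a type and less RNA per cell cannot be told apart.

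The lysosome is the acidic compartment in which proteins, glycans and lipids delivered by endocytosis and autophagy are broken down. The V-ATPase pumps protons into it through a membrane sector, V0, driven by ATP hydrolysis in a cytosolic sector, V1. Many genes of the compartment carry a palindromic E-box, known as the CLEAR element, close to the start of transcription, which is bound by TFEB and TFE3. Lysosomes and late endosomes also lie on the route of MR1 and of other antigen-presenting molecules. Mr1, for which reads of the endogenous gene and the transgene cannot be told apart, was at 1081 ± 51.0 FPKM (SD, n = 3) in parental cells and at 1055 ± 34.7 FPKM (SD, n = 3) in M8, a difference in RNA that did not pass the threshold (log2 fold change -0.03, limma adjusted p = 0.615) and that does not bear on the MR1 protein at the surface.

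Promoter sequences (RefSeq, GRCm38.p6, from 250 bases before to 50 bases after a start site) were matched by symbol to 42 of the 50 genes. Atp6v1b2, Atp6v1c1, Atp6v1g1, Atp6v1h, Asah1, Ctsb, Ctsh and Npc1 had no entry. The E-box CACGTG, which reads the same on both strands, was in the promoters of 14 of these 42 genes (33.3%), against 8.09% of all 27025 genes with a promoter entry and 12.2% of the 8167 among them that were tested for expression. The core of the CLEAR element, TCACGTGA, which contains the E-box, was in 7 of them (16.7%), against 1.12% of all genes with an entry and 2.4% of those tested. These shares are a description, because lysosomal genes are the genes in which the element was first described. The longer palindrome GTCACGTGAC was in 0 of the 42 and in 100 (0.37%) of all genes. The promoter stretches that hold the core follow, with that of Lamp1, whose promoter held 4 E-boxes without the core. Capitals mark the core or, outside it, the E-box. They are ordered by the difference in RNA between M8 and parental cells, from the highest to the lowest.
Gla: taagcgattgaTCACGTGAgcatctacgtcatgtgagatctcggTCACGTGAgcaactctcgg
Ctsa: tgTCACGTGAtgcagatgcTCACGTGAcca
Atp6v0d1: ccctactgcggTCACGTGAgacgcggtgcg
Lamp1: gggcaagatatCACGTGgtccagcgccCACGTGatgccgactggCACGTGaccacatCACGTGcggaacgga
Mcoln1: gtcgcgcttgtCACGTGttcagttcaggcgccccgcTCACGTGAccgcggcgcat
Atp6v0e: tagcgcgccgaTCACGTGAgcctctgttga
Atp6v1a: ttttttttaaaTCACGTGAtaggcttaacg
Ctsd: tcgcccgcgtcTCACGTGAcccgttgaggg

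The stretch of Gla lies at chrX:134601182-134601244 on the minus strand, with both cores far upstream (from -228 and from -195, counted from a start site at 1). Ctsa (chr2:164833758-164833787, plus strand) has a core on each side of the start site used here, from -13 and from 5. This start site, like that used for Atp6v1a, lies inside the RefSeq bounds of its gene. In Atp6v0d1 (chr8:105566050-105566079, minus strand) the core spans the start site, and in Atp6v0e (chr17:26676387-26676416, plus strand) it begins at 3. The stretches of Mcoln1 (chr8:3500437-3500491) and Lamp1 (chr8:13159089-13159160) are both on the plus strand, and those of Atp6v1a (chr16:44139373-44139402) and Ctsd (chr7:142387908-142387937) on the minus strand. Of the 7 genes with the core, 3 were higher in M8 (Gla, Ctsa and Atp6v0d1), 1 was lower (Ctsd) and 3 did not pass the threshold. Among 196 tested genes with a core in the promoter, 26.0% were higher and 10.7% lower, and among 802 with an E-box but no core these shares were 26.8% and 14.6%. Among 7169 tested genes with neither they were 20.7% and 16.7%. A match shows that the letters are present, and binding was not measured.

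**Figure D1:**
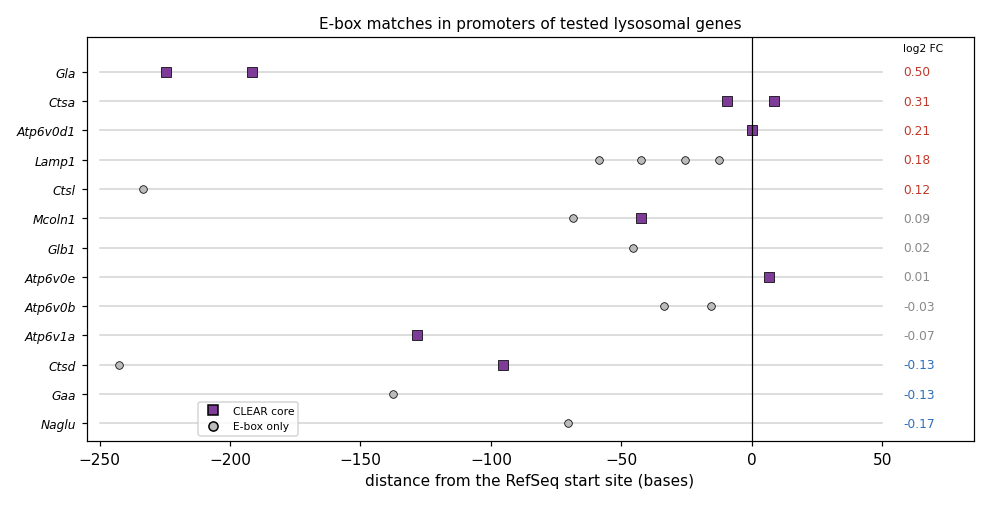
Positions of E-box matches (grey circles) and CLEAR cores (purple squares) in the promoters of the 13 tested lysosomal genes that hold one, in bases from the RefSeq start site, with each gene's log2 fold change (M8 minus parental) at the right. Genes with a core are found from 0.50 (Gla) to -0.13 (Ctsd), so that the core is present in genes that rose, fell and did not pass the threshold.

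Of the 50 genes, 46 had a mean of at least 1 FPKM over the 6 samples and were tested. The 4 that were not are cathepsins. An exact 0 in these tables may be a failed estimate, because Optn, a widely expressed gene, was also listed at 0 throughout. Ctsc was listed at 0 in all 6 samples, Ctsh in 5 of them and Ctsf in 4, and Ctsk was between 0.0909 and 0.268 FPKM. The least expressed gene that was tested, Manba, had a mean of 2.21 FPKM. The lines were compared by limma on log2(FPKM + 1) in all 10597 genes with a mean of at least 1 FPKM, and a gene was called at a Benjamini-Hochberg adjusted p below 0.1, the false discovery rate used in the study. On this scale the fold change of weakly expressed genes is understated. Of the 46 genes, 13 were higher in M8 (28.3%, background 21.2% of all genes tested) and 6 were lower (13%, background 16.5%), and 27 did not pass. Together, 19 of 46 were called, against 37.7% of all genes, so that the share of lysosomal genes called lay near the background. Their median log2 fold change was 0.026, against 0.0069 over all genes tested, and it fell below 0 with TPM (-0.0098), upper-quartile scaling (-0.00025) and quantile normalization (-0.012). The changes were small, and 5 of the 46 ratios of mean FPKM reached 1.2 in either direction, against 2229 of all 10597 genes tested. The lysosomal genes were also more abundant, with a median level of 62.1 FPKM against 15.4 FPKM over all genes tested. In 23 of the 46 (50%) the lines did not overlap, against 45.2% of all genes tested. The M8 values were all above the parental ones in 16 (background 24.8%) and all below them in 7 (background 20.4%).

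The balance of these calls depended on how the samples were scaled. Rescaling to TPM gave 8 higher and 9 lower lysosomal genes, quantile normalization 6 and 13, and upper-quartile scaling 11 and 9. Over all genes, the split of 2250 higher and 1745 lower became 1652 and 2249 with TPM, 1849 and 2156 with upper-quartile scaling and 1820 and 1773 with quantile normalization. Leaving out M8 replicate 1 left 8 higher and 2 lower lysosomal genes. Without M8 replicate 3 there were 8 higher, without M8 replicate 2 there were 3 lower, and without parental replicate 2 there were 2 lower. Of the 19 calls, 9 held in each of the 6 fits without 1 sample, 10 under each of 4 scalings, and 6 in both. These 6 are Gla, Ctsa, Atp6v0c and Atp6v0d1, which were higher in M8, and Lipa and Ids, which were lower. None of the 19 changed direction in any of 18 alternatives.

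**Figure D2:**
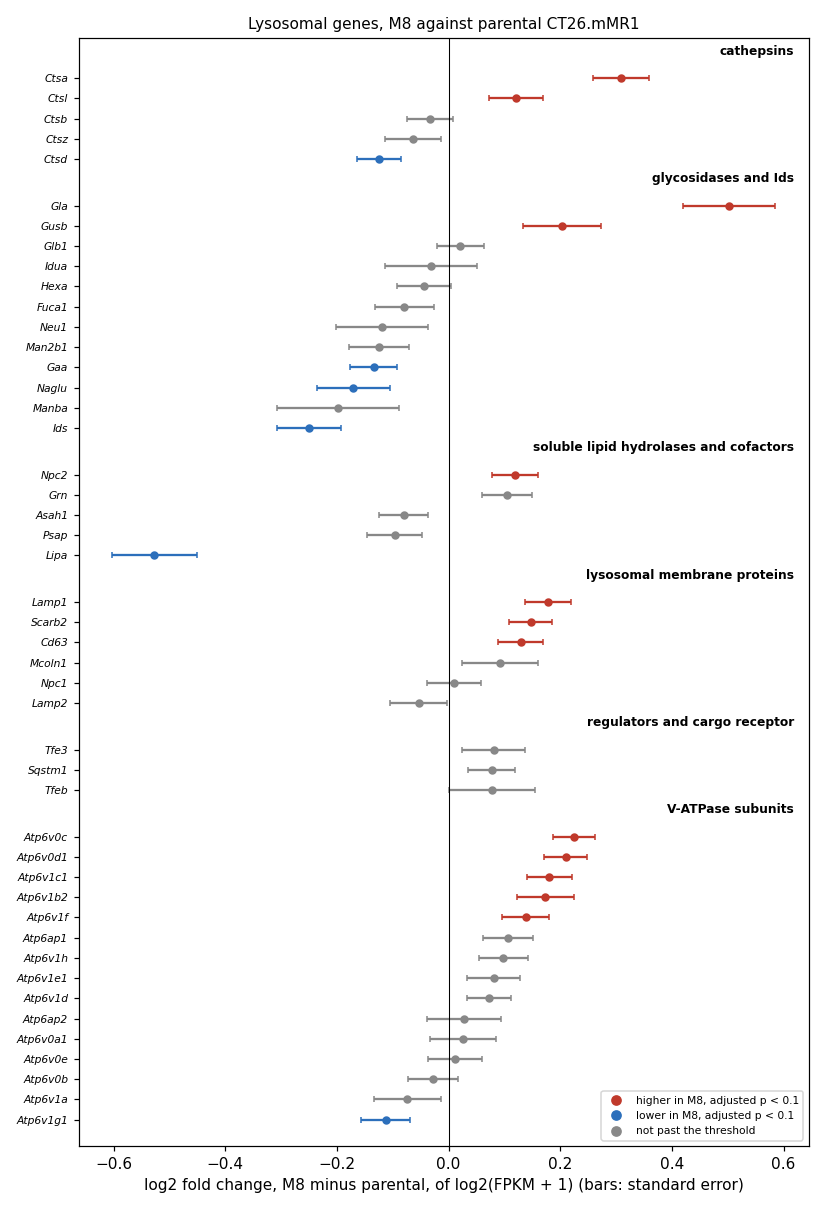
Log2 fold change (M8 minus parental, of log2(FPKM + 1), with its standard error) of the 46 tested lysosomal genes in 6 lists, in red where higher in M8, in blue where lower and in grey where the adjusted p was not below 0.1. The extremes are Gla at 0.50 and Lipa at -0.53, and the V-ATPase subunits lie between -0.11 and 0.22.

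The 6 lists of lysosomal genes are small, and their counts are a description, beside backgrounds of 21.2% higher and 16.5% lower. Among the cathepsins, the proteases of the lysosome, 2 of 5 tested were higher in M8, 1 was lower and 2 did not pass. Their median log2 fold change of -0.033 had no stable sign, being 0.00028 without parental replicate 2, 0.019 with no filter on low values and -0.070 with TPM. Ctsl, a cysteine protease, was by far the most abundant of them and ranked 64 of all 24346 symbols by its mean. It made up 66.5% to 70.3% of the summed FPKM of the 9 cathepsins. Its values were 1539, 1696 and 1660 FPKM in parental cells and 1728, 1818 and 1773 FPKM in M8. The M8 values were all higher, by a small margin (log2 fold change 0.12 ± 0.048 SE, limma adjusted p = 0.0892). This call passed in 2 of 6 fits without 1 sample, being lost without parental replicate 1 and without any 1 of the M8 replicates (highest adjusted p = 0.264), and it was lost under TPM and upper-quartile scaling. The exons of Ctsl overlap an antisense gene and a processed pseudogene, so that its value is less certain.

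Ctsa, which encodes cathepsin A, the carboxypeptidase that protects β-galactosidase and neuraminidase 1 in a complex, rose most among the proteases. It had 31.2, 31.0 and 28.3 FPKM in parental cells and 38.2, 36.4 and 38.1 FPKM in M8, and the lines did not overlap. Its ratio of means was 1.25 (log2 fold change 0.31 ± 0.050 SE, limma adjusted p = 0.00262), and the call held in all 18 alternatives. Its partners did not pass, with 34.6 ± 0.398 and 35.2 ± 1.08 FPKM (SD, n = 3 each) for Glb1 and 3.49 ± 0.183 and 3.14 ± 0.277 FPKM (SD, n = 3 each) for Neu1 in parental and M8 cells. The M8 values of Neu1 were all below the parental ones. Exons of Ctsa overlap Pltp and Neurl2 on the opposite strand, by at most 10.5% of their length.

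Ctsd, the aspartic protease cathepsin D, was lower in M8. Its values were 268, 282 and 266 FPKM in parental cells and 245, 251 and 252 FPKM in M8 (log2 fold change -0.13 ± 0.039 SE, limma adjusted p = 0.0400). The lines did not overlap, but the call was lost without parental replicate 2 or without M8 replicate 1 (highest adjusted p = 0.140). GENCODE places the gene Gm49369 over 34.4% of its exon length on the same strand, and reads of both cannot be told apart. Ctsb, a cysteine protease, had 230.0, 247 and 231 FPKM in parental cells and 226, 233 and 233 FPKM in M8, with overlapping lines (log2 fold change -0.03, limma adjusted p = 0.582). Ctsz, a carboxypeptidase, also overlapped, with 258 ± 13.9 and 247 ± 10.2 FPKM (SD, n = 3 each, limma adjusted p = 0.361). Ctsd, Ctsz and Ctsb thus stood at similar levels, whereas Ctsa was expressed at a small fraction of them. Under quantile normalization both Ctsb and Ctsz were called lower (adjusted p = 0.0907 and 0.0198), which gave 2 higher and 3 lower cathepsins.

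**Figure D3:**
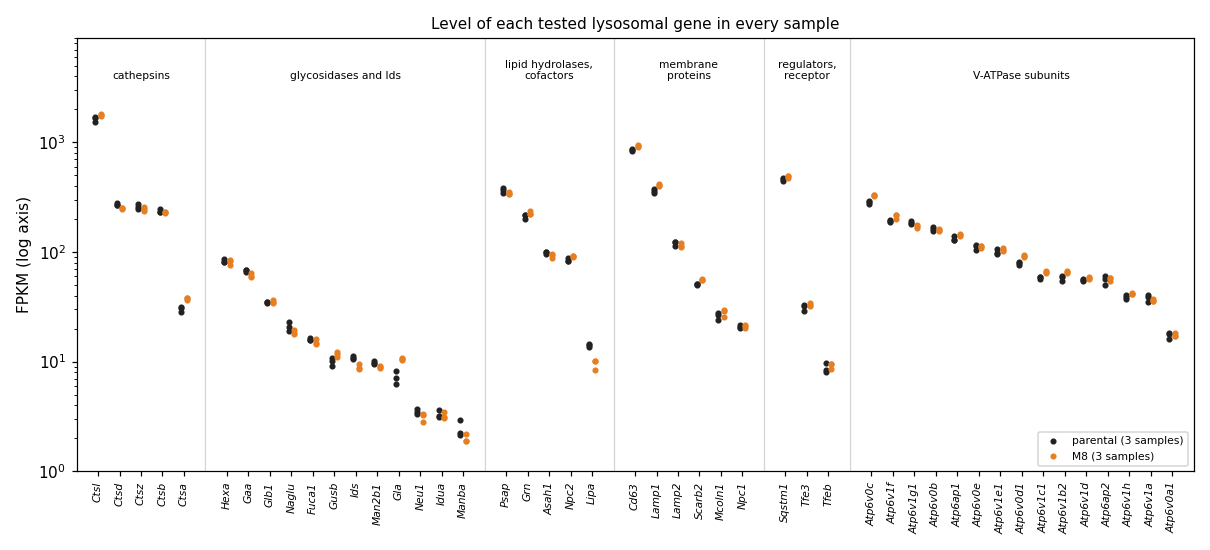
FPKM of the 46 tested lysosomal genes in each of 3 parental (black) and 3 M8 (orange) samples, on a log axis, ordered by mean within 6 lists. Levels run from 1702 FPKM for Ctsl to 2.21 FPKM for Manba (means of 6 samples), and the distance between the lines is small beside that between genes.

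The 12 genes of glycan breakdown remove sugars and sulfate from glycoproteins, glycolipids and glycosaminoglycans. In M8, 2 were higher, 3 were lower and 7 did not pass. Their median log2 fold change was -0.099, with 9 of 12 values below 0, against 5143 of all 10597 genes tested. The levels of the 12 genes ran from a mean of 81.8 FPKM for Hexa, a subunit of β-hexosaminidase, to 2.21 FPKM for Manba, the β-mannosidase. Gla, the α-galactosidase A that cleaves globotriaosylceramide, rose most of the 46 genes tested. It had 8.24, 7.12 and 6.28 FPKM in parental cells and 10.7, 10.5 and 10.6 FPKM in M8. All M8 values were well above the parental ones (log2 fold change 0.50 ± 0.082 SE, limma adjusted p = 0.00268, ratio of means 1.47), and the call held in all 18 alternatives.

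Ids, the iduronate sulfatase of heparan and dermatan sulfate breakdown, was lower in M8. Its values of 10.8, 10.6 and 11.2 FPKM in parental cells fell to 9.52, 8.83 and 8.61 FPKM, with no overlap (log2 fold change -0.25 ± 0.057 SE, limma adjusted p = 0.0115). The call of Ids was lost only where a fold change of 1.2 was also asked for. Its neighbors in the same pathway are Idua, the iduronidase, and Naglu, which removes N-acetylglucosamine from heparan sulfate. Idua had 3.31 ± 0.246 and 3.21 ± 0.233 FPKM (SD, n = 3 each, limma adjusted p = 0.805) in parental and M8 cells. Naglu was called lower (20.9 ± 1.81 and 18.5 ± 0.816 FPKM, SD, n = 3 each, log2 fold change -0.17, limma adjusted p = 0.0784), although the highest M8 value of 19.4 FPKM lay above the lowest parental value of 19.2 FPKM. That call was lost without parental replicate 2 or 3 or M8 replicate 1 or 2 (highest adjusted p = 0.237).

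Gaa, the acid α-glucosidase of glycogen breakdown, had 65.6, 68.2 and 67.8 FPKM in parental cells and 60.2, 59.5 and 63.8 FPKM in M8. The M8 values were all lower (log2 fold change -0.13 ± 0.042 SE, limma adjusted p = 0.0412), and the call was lost without parental replicate 2 or M8 replicate 1 or 2 (highest adjusted p = 0.144). Gusb, the β-glucuronidase, had 10.7, 10.2 and 9.07 FPKM in parental cells and 10.9, 12.2 and 11.8 FPKM in M8. It was called higher with the closest samples almost touching (log2 fold change 0.20 ± 0.070 SE, limma adjusted p = 0.0570), and not without parental replicate 3 or M8 replicate 2 or 3 (highest adjusted p = 0.170), under TPM or without the filter on low values. The other 7 genes, Glb1, Hexa, Idua, Manba, Man2b1, Fuca1 and Neu1, did not pass, with log2 fold changes from -0.20 (Manba, limma adjusted p = 0.200) to 0.021 (Glb1). Of these, Man2b1 was called lower under TPM, upper-quartile scaling and a fit with no trend, and Hexa under quantile normalization. All M8 values of Man2b1 and of Neu1 lay below the parental ones.

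Of the 5 soluble lipid hydrolases and cofactors, 1 was higher in M8, 1 was lower and 3 did not pass (median log2 fold change -0.081). Lipa, the acid lipase that hydrolyses cholesteryl esters and triglycerides, fell furthest of the 46 genes tested. Its values were 14.6, 14.3 and 13.6 FPKM in parental cells and 8.31, 10.1 and 10.2 FPKM in M8. Every M8 value was far below the parental ones (log2 fold change -0.53 ± 0.076 SE, limma adjusted p = 0.00157, ratio of means 0.675), and the call held in all 18 alternatives. The cholesterol that this lipase releases is bound by Npc2 and passed to the membrane protein Npc1. Npc2 had 82.1, 87.9 and 82.4 FPKM in parental cells and 90.1, 92.5 and 91.7 FPKM in M8 (log2 fold change 0.12 ± 0.041 SE, limma adjusted p = 0.0568). This small rise passed in 1 of 6 fits without 1 sample, that without parental replicate 2 (highest adjusted p = 0.162 over the 6), and under 1 of 4 scalings. Npc1 was at 20.9 ± 0.668 and 21.0 ± 0.732 FPKM (SD, n = 3 each, limma adjusted p = 0.905).

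The most abundant genes of this list were Psap, the precursor of the saposins that activate sphingolipid hydrolases, and Grn, which encodes progranulin. Psap had 367 ± 21.2 and 343 ± 11.3 FPKM (SD, n = 3 each, limma adjusted p = 0.172) in parental and M8 cells. It was called lower under TPM, upper-quartile scaling and quantile normalization and without parental replicate 1 (lowest adjusted p = 0.00436). Grn had 210 ± 9.11 and 226 ± 7.55 FPKM (SD, n = 3 each, limma adjusted p = 0.109), with all M8 values above the parental ones, and was called higher without parental replicate 1. Asah1, the acid ceramidase, had 98.3 ± 2.98 and 92.9 ± 3.70 FPKM (SD, n = 3 each, limma adjusted p = 0.198). It too was called lower under TPM, upper-quartile scaling and quantile normalization (lowest adjusted p = 0.0185). Under each of these 3 scalings the list held 3 lower genes and Npc2 was not called, so that among the 4 scalings the split of 1 higher and 1 lower gene held with median centring only.

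Of the 6 lysosomal membrane proteins, 3 were higher in M8 and the other 3 did not pass, with a median log2 fold change of 0.11 that stayed above 0 under the 4 scalings. Under quantile normalization these 3 calls were lost and Lamp2 was called lower (adjusted p = 0.0866). Lamp1, the heavily glycosylated protein that lines the limiting membrane, had 373, 363 and 344 FPKM in parental cells and 414, 403 and 405 FPKM in M8. The lines did not overlap (log2 fold change 0.18 ± 0.042 SE, limma adjusted p = 0.0123), and the call held without each sample but not under quantile normalization, where the log2 fold change was 0.068. Exons of Lamp1 overlap Grtp1 on the opposite strand by 9.31% of their length. Its relative Lamp2 did not follow it, with 124, 123 and 113 FPKM in parental cells and 111, 113 and 122 FPKM in M8 (log2 fold change -0.05, limma adjusted p = 0.462). Whether the 2 genes differ in their response was not tested.

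Cd63, a tetraspanin of late endosomes and lysosomes, was the most abundant membrane protein gene. It had 856, 871 and 826 FPKM in parental cells and 925, 913 and 953 FPKM in M8 (log2 fold change 0.13 ± 0.040 SE, limma adjusted p = 0.0395). All M8 values were higher, but the call was lost without M8 replicate 1 or 3 (highest adjusted p = 0.141) and under TPM and quantile normalization, and a pseudogene, Cd63-ps, is named after it. Scarb2, the receptor that carries β-glucocerebrosidase to the lysosome, had 49.5, 51.3 and 51.2 FPKM in parental cells and 56.0, 56.1 and 56.5 FPKM in M8. The values within each line were close together (log2 fold change 0.15 ± 0.038 SE, limma adjusted p = 0.0192), and the call held without each sample and was lost under quantile normalization. Mcoln1, the calcium channel TRPML1, had 26.6, 27.9 and 24.0 FPKM in parental cells and 29.3, 28.8 and 25.7 FPKM in M8, with overlapping lines (log2 fold change 0.09, limma adjusted p = 0.336).

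The transcription factors of the pathway did not pass. Tfeb had 9.81, 8.04 and 8.34 FPKM in parental cells and 8.65, 9.52 and 9.55 FPKM in M8 (log2 fold change 0.08 ± 0.077 SE, limma adjusted p = 0.481). Tfe3 was the more abundant of the pair, with 32.0, 28.9 and 33.1 FPKM in parental cells and 34.5, 32.5 and 32.5 FPKM in M8 (log2 fold change 0.08 ± 0.056 SE, limma adjusted p = 0.313). Both overlapped between the lines. These factors are controlled mainly by phosphorylation and entry into the nucleus, which RNA levels do not show. Sqstm1, which encodes the autophagy receptor p62, had 473, 463 and 441 FPKM in parental cells and 488, 496 and 469 FPKM in M8 (log2 fold change 0.08 ± 0.042 SE, limma adjusted p = 0.201), again with overlap.

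Of the 15 V-ATPase genes, 5 were higher in M8, 1 was lower and 9 did not pass. Of all genes tested, 21.2% were higher and 16.5% lower. The median log2 fold change of the V-ATPase genes was 0.081, and 12 of 15 values were above 0, against 5454 of all 10597 genes tested. Summed over the 15 genes, the level was 1550, 1598 and 1553 FPKM in the parental samples and 1671, 1664 and 1664 FPKM in M8, a ratio of means of 1.06. The median was 0.044 with TPM and 0.0076 with quantile normalization, with 2 genes called higher and 2 lower in the latter, so the small shift of the list depended on the scaling. In the V0 sector, 2 of 5 genes rose. Atp6v0c, the proteolipid that forms the rotating ring, was the most abundant subunit. It had 276, 292 and 283 FPKM in parental cells and 333, 334 and 327 FPKM in M8, without overlap (log2 fold change 0.22 ± 0.038 SE, limma adjusted p = 0.00305). Pseudogenes named Atp6v0c-ps1 and Atp6v0c-ps2 exist, whose reads could be counted with it.

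Atp6v0d1, which connects the ring to the central stalk, had 79.3, 80.4 and 76.8 FPKM in parental cells and 91.1, 93.0 and 89.8 FPKM in M8. It rose with a wide gap between the lines (log2 fold change 0.21 ± 0.038 SE, limma adjusted p = 0.00436). The other V0 genes did not pass, apart from a lower call of Atp6v0b under quantile normalization. Atp6v0b, the second proteolipid of the ring, had 162 ± 7.67 and 159 ± 3.91 FPKM, and Atp6v0e had 111 ± 6.22 and 111 ± 2.74 FPKM (SD, n = 3 each). Atp6v0a1, a form of the subunit through which protons pass, was the least abundant of the 15, with 18.0, 18.1 and 15.9 FPKM in parental cells and 18.3, 17.3 and 17.3 FPKM in M8 (log2 fold change 0.03, limma adjusted p = 0.779). Of the other forms of that subunit, Atp6v0a2 had 19.0 to 21.1 FPKM in parental cells and 21.4 to 21.9 FPKM in M8 (limma adjusted p = 0.110), and Atp6v0a4 was at or below 0.03 FPKM. Tcirg1, the form known from osteoclasts, had 38.3, 38.2 and 33.5 FPKM in parental cells and 42.7, 43.1 and 39.7 FPKM in M8, and was called higher (log2 fold change 0.18, limma adjusted p = 0.0464). That call was lost without parental replicate 3 or M8 replicate 1 or 2 and under TPM and quantile normalization.

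In the V1 sector, 3 of 8 genes rose, 1 fell and 4 did not pass. Atp6v1c1, the subunit that joins V1 to the stator when the pump assembles, had 58.9, 59.4 and 56.3 FPKM in parental cells and 66.3, 64.5 and 67.4 FPKM in M8 (log2 fold change 0.18 ± 0.041 SE, limma adjusted p = 0.0110). The call held without each sample and was lost under quantile normalization. Atp6v1b2, one of the subunits of the ATP-hydrolysing head, had 60.8, 59.7 and 54.2 FPKM in parental cells and 67.6, 63.8 and 65.7 FPKM in M8 (log2 fold change 0.17 ± 0.051 SE, limma adjusted p = 0.0323). All its M8 values were higher, and the call was lost without M8 replicate 1 (adjusted p = 0.114) and under TPM and quantile normalization. Its partner in the head, the catalytic subunit Atp6v1a, had 38.3 ± 3.15 and 36.2 ± 0.999 FPKM (SD, n = 3 each, limma adjusted p = 0.380), with overlap between the lines, and was called lower without parental replicate 3.

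Atp6v1f had 189, 190.4 and 194 FPKM in parental cells and 216, 200.3 and 216 FPKM in M8. It was higher without overlap (log2 fold change 0.14 ± 0.042 SE, limma adjusted p = 0.0352), but not called without M8 replicate 1 or 3 (highest adjusted p = 0.129) or under quantile normalization. Atp6v1g1, a subunit of the peripheral stalk, was the only V-ATPase gene called lower. It had 181, 184 and 193 FPKM in parental cells and 174, 177 and 165 FPKM in M8 (log2 fold change -0.11 ± 0.044 SE, limma adjusted p = 0.0839). This call passed in 1 of 6 fits without 1 sample, that without parental replicate 1 (highest adjusted p = 0.256 over the 6). Of the remaining V1 genes, Atp6v1d and Atp6v1h had all M8 values above the parental ones. Atp6v1e1 was called higher without parental replicate 3 and Atp6v1h without parental replicate 1. In the main fit Atp6v1d, Atp6v1e1 and Atp6v1h had log2 fold changes of 0.073 to 0.098 and did not pass. Nor did the accessory subunits Atp6ap1 (133 ± 6.67 and 144 ± 2.61 FPKM, SD, n = 3 each, limma adjusted p = 0.102, called higher without parental replicate 2 and at a mean of at least 5 FPKM) and Atp6ap2 (55.7 ± 5.24 and 56.6 ± 2.36 FPKM, SD, n = 3 each, limma adjusted p = 0.789).

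**Figure D4:**
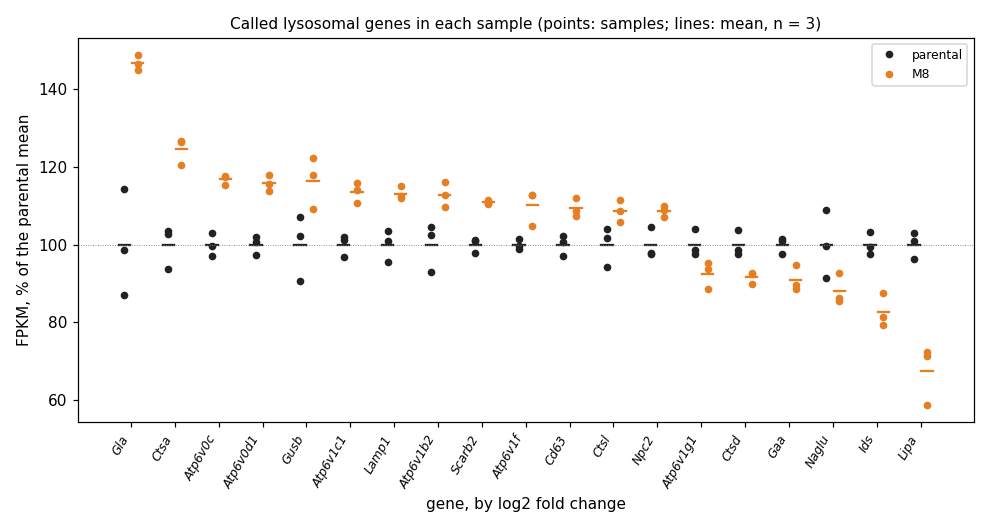
FPKM of the 19 called lysosomal genes in each sample, as a percent of the parental mean (points are samples, lines are means of 3), with parental cells in black and M8 in orange. The lines do not overlap in 18 of the 19, the exception being Naglu, against 3773 of the 3995 genes called among all genes. Gla and Lipa stand furthest from 100%.

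Related genes outside the 50 were followed in 7 lists with 123 genes, of which 102 were tested, 24 were higher in M8 (23.5%, background 21.2%) and 18 were lower (17.6%, background 16.5%), so that these shares also lay near those of all genes. The single lists are small, and their counts are a description. Among 25 tested soluble enzymes and activators, 6 were higher and 6 lower (median log2 fold change -0.079), a split that became 2 and 10 with TPM, 3 and 9 with upper-quartile scaling and 2 and 8 with quantile normalization. Gm2a, the activator of GM2 ganglioside breakdown, fell from 3.47 ± 0.502 to 2.36 ± 0.149 FPKM (SD, n = 3 each, log2 fold change -0.41, limma adjusted p = 0.0151). Arsb, a sulfatase of dermatan sulfate, rose from 22.9 ± 1.71 to 28.0 ± 0.110 FPKM (SD, n = 3 each, log2 fold change 0.28, limma adjusted p = 0.00629). Of 20 tested membrane proteins and transporters, 3 were higher and 5 lower (median -0.025, and 3 and 8 with TPM or upper-quartile scaling). Quantile normalization gave 4 higher and 7 lower in this list (median -0.050). Glmp rose from 53.9 ± 4.0 to 71.1 ± 1.86 FPKM (SD, n = 3 each, log2 fold change 0.40, limma adjusted p = 0.00145). Tmem175, an ion channel of the lysosome, fell from 5.11 ± 0.217 to 3.70 ± 0.438 FPKM (SD, n = 3 each, log2 fold change -0.38, limma adjusted p = 0.00940). The largest difference was that of Cd68, a glycoprotein best known from macrophages, which had 3.77, 4.90 and 4.27 FPKM in parental cells and 1.39, 2.46 and 1.44 FPKM in M8 (log2 fold change -0.96 ± 0.146 SE, limma adjusted p = 0.00203). Of 12 macrophage markers only Cd14 had a mean of at least 1 FPKM (log2 fold change 0.15, limma adjusted p = 0.0489). It had 15.4, 16.3 and 16.4 FPKM in parental cells and 17.9, 18.7 and 17.3 FPKM in M8. Adgre1, Csf1r, Fcer1g and C1qa were listed at 0 in every sample. The 12 markers summed to 16.1 to 17.0 FPKM in parental cells and 17.9 to 19.2 FPKM in M8, most of it from Cd14, so the sum restates that 1 gene.

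Of 9 tested further V-ATPase subunits and assembly factors, 3 were higher and the other 6 did not pass (median log2 fold change 0.12), with 2 higher under TPM and 1 under quantile normalization. They were led by the assembly factor Ccdc115 (from 12.0 ± 1.08 to 14.9 ± 0.206 FPKM, SD, n = 3 each, limma adjusted p = 0.00937). Of 12 genes for the sorting of lysosomal enzymes, 5 were higher and the other 7 did not pass (median 0.077), with 3 higher under TPM and 4 under upper-quartile scaling and quantile normalization. Nagpa, which uncovers the mannose 6-phosphate signal, rose by 0.34 on the log2 scale (limma adjusted p = 0.0140), while both mannose 6-phosphate receptors did not pass, M6pr with a log2 fold change of 0.014 and Igf2r with 0.054. Among 15 TFEB relatives and genes of nutrient sensing at the lysosome, 5 were higher and the other 10 did not pass (median 0.069). There was 1 lower call under TPM (median 0.036) and under upper-quartile scaling (median 0.044), and quantile normalization gave 4 higher and 2 lower (median 0.0067). Lamtor1, an anchor of the Ragulator complex, had 72.5, 73.6 and 77.9 FPKM in parental cells and 91.6, 89.5 and 88.9 FPKM in M8 (log2 fold change 0.27, limma adjusted p = 0.00215), and Flcn, whose product acts on the Rag GTPases, rose by 0.29 (limma adjusted p = 0.00685).

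Of 18 tested autophagy genes, 1 was higher and 6 were lower (median log2 fold change -0.0096). Under TPM and upper-quartile scaling 7 were lower and the higher call was lost (medians -0.046 and -0.036), and under quantile normalization 1 was higher and 7 were lower (median -0.089). Calcoco1 fell from 29.1 ± 0.747 to 22.0 ± 0.934 FPKM (SD, n = 3 each, log2 fold change -0.39, limma adjusted p = 0.000855), and the kinase gene Ulk1 fell by 0.25 (limma adjusted p = 0.0167). Of the 3 tested genes in a list of cathepsin inhibitors, Cstb, the cystatin B that inhibits cysteine cathepsins, had 265, 262 and 293 FPKM in parental cells and 356, 361 and 327 FPKM in M8. The M8 values were all higher (log2 fold change 0.34 ± 0.055 SE, limma adjusted p = 0.00248). Serpinb6a was lower (log2 fold change -0.19, limma adjusted p = 0.00673), and Cst3 did not pass (-0.015). Under quantile normalization 1 of these 3 genes was higher and 2 were lower (median -0.13), so that Cst3 was called lower there. All calls of Arsb, Gm2a, Glmp, Tmem175, Cd68, Ccdc115, Nagpa, Flcn, Lamtor1, Calcoco1 and Cstb held in each alternative in which the gene was tested.

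**Figure D5:**
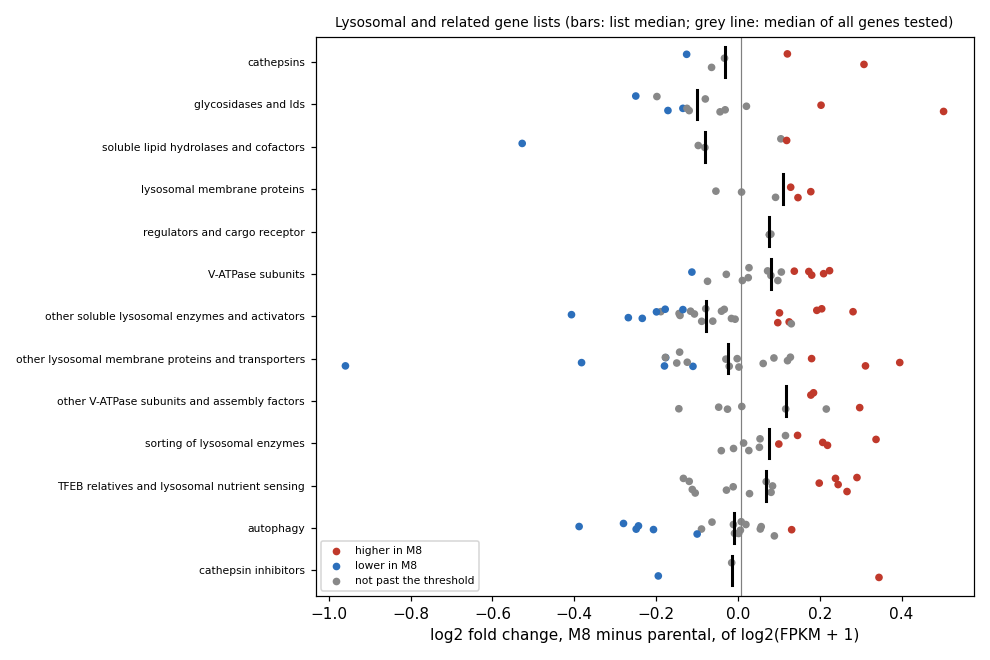
Log2 fold change (M8 minus parental) of each tested gene in the 6 lists of lysosomal genes and 7 related lists, with points colored by call, bars at the list medians and a grey line at the median of all genes tested (0.0069). Cd68 at -0.96 lies furthest from 0, and points on both sides of 0 are seen in every list but the 3 regulators.

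In GRCm38, Gla lies on chromosome X from 134588169 to 134601005, Ctsa on chromosome 2 from 164832872 to 164841032, Atp6v0c on chromosome 17 from 24163865 to 24169678 and Atp6v0d1 on chromosome 8 from 105524461 to 105566064. Lipa lies on chromosome 19 from 34492316 to 34527474 and Ids on chromosome X from 70343069 to 70385834. These positions are from RefSeq, in which all 50 symbols were found. Exons of 15 of the 50 genes overlap those of another gene in GENCODE M21, and those of Gla, Lipa, Ids, Atp6v0c and Atp6v0d1 do not.

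The relative depth, scaled to the parental mean, was 0.942 to 1.06 in the parental libraries and lower in M8, at 0.766 to 0.869. The part of depth in the results was not tested. The FPKM values summed to 593635 to 626241 in parental cells and 622529 to 630264 in M8. Between replicates the median coefficient of variation of the 46 genes was 4.22% in parental cells and 3.31% in M8. The label names the tissue as colon, but Epcam, Cdh1, Krt19 and Cdx2 were listed at 0 in every sample, which may again be failed estimates, and 3 of 9 colon epithelial markers had a mean of at least 1 FPKM. These were Krt18 and, both called lower in M8, Krt20 (log2 fold change -0.50, limma adjusted p = 0.00438) and Lgals4 (-0.66, limma adjusted p = 0.00728). The 9 markers summed to 41.8 to 57.7 FPKM in parental cells and 48.1 to 50.1 FPKM in M8.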

How the data were processed

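Total RNA from 3 parental and 3 M8 samples was made into stranded mRNA libraries, and per the study's methods reads of 101 bases were mapped to mm10 with TopHat. The authors deposited FPKM values, 1 table of 24346 gene symbols for each sample, which the methods credit to Cufflinks. The submitters' processing notes name TopHat2 2.1.1, Bowtie2 2.2.8, SAMtools 0.1.18 and Cuffdiff 2.2.1. The gene annotation and the treatment of strand and of shared reads are not given in the sources used here. The study's own comparison used counts, which were not used here, so FPKM was tested on a log scale.

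The lines were compared by linear models in limma 3.58.1 (R 4.3.3, lmFit and eBayes with a trend) on log2(FPKM + 1) over the 10597 genes with a mean of at least 1 FPKM, without covariates. Calls were made at a Benjamini-Hochberg adjusted p below 0.1. The fit was tested on simulated data. Samples were grouped by their titles. The study calls the 3 samples of a line biological replicates, but how they were separated is not given in the sources used here, so p-values measure the spread between these samples. The deviations of equally numbered samples did not pair them. Relative depth, scaled to the parental mean, was the inverse of the mode of each sample's ratio of values to parental replicate 1. The ratio was taken in 1443 genes with a mean below 0.5 FPKM and a value above 0 in each sample. Reading it as depth assumes that equal small read counts give this mode. FPKM values give no absolute depth or counting error, so no interval is given.

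The members and lists were chosen with earlier results of these data known. Any of the 50 genes could be named, with every sample's value for up to 4 called genes per list whose lines did not overlap and for Tfeb, Tfe3, Sqstm1, Mcoln1, Lamp1, Ctsd, Ctsb, Ctsl and Atp6v0a1, and in each related list the 3 genes that changed most. Beyond this rule, Lamp2, Atp6v1f and Atp6v1g1 are given in every sample and Atp6v0a2, Atp6v0a4, M6pr, Igf2r, Cst3 and single markers are named, chosen after their values were seen. Alternatives were pseudocounts of 0.1 and 0.5, no filter, a mean of at least 5 FPKM, TPM, median centring, upper-quartile and quantile scaling, no trend, a stricter threshold of 0.05, a minimum fold of 1.2, a replicate block and each sample left out. Lists were given by counts and medians, with no set test.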

Additional observations from a re-analysis of the deposited data

How the results depend on the processing

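All 19 calls of lysosomal genes kept their direction in the 18 alternatives. With TPM, 8 lysosomal genes were higher in M8, and the median log2 fold change was -0.14 for the glycosidases and Ids, -0.12 for the soluble lipid hydrolases and cofactors, 0.074 for the membrane proteins and 0.044 for the V-ATPase. With quantile normalization, 6 were higher and 13 lower, and the medians were -0.11 for the cathepsins, -0.16 for the soluble lipid hydrolases and cofactors, 0.058 for the membrane proteins and 0.0076 for the V-ATPase. With a fold change of at least 1.2, 2 lysosomal genes were higher and 1 was lower, of 804 and 775 over all genes. With a mean of at least 5 FPKM, the median of all lysosomal genes was 0.073. When each sample was left out in turn, 8 to 14 lysosomal genes were higher and 2 to 7 lower, and 1157 to 1672 of all genes were lower. The medians of the glycosidases and Ids were then -0.12 to -0.072, and those of the membrane proteins 0.070 to 0.14. The cause of these shifts was not tested. Fits without 1 sample had fewer samples, and those at 5 FPKM fewer genes. The other alternatives left the counts over all lysosomal genes within 1.5 times and the medians within the spread between replicates. With the replicate number as a replicate block, 12 lysosomal genes were higher and 5 lower, and 2171 and 1688 of all genes. Ctsl and Atp6v1g1 lost their call. The numbers share no stated culture, and the deviations of equally numbered samples correlated at 0.10, -0.11 and -0.033. The block is therefore no paired design. FPKM gives no absolute depth, so what depth limits could not be measured, and 4 of the 50 genes had a mean below the filter of 1 FPKM.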
